A study of Mus musculus with 20 samples.

Results

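The change over the first day of induced reprogramming was followed in mouse embryonic fibroblasts that carried a Ddx10 shRNA. It is the step to day 1 from day 0 in that arm, chosen by its 4 libraries (2 of day 1 and 2 of day 0) out of the 20 libraries of the series, and it was read over all 15757 genes of the deposited table. All 20 libraries came from passage 2 fibroblasts of OG2 mice, whose Oct4 reporter makes green fluorescent protein, that had been infected with retroviruses for Oct4, Sox2, Klf4 and Myc (OSKM) and kept in iCD1, a culture medium made for reprogramming. The groups used here were the Ddx10 shRNA arm at day 1 and at day 0, and the control arm, which carried an shRNA against luciferase, at day 1 and at day 0, with 2 libraries each. The later days of both arms, with 2 libraries each at days 3, 5 and 7, entered the fit that sets the spread and the plot of levels by day, but no comparison. The titles name the factors at day 0 too, and their counts were already high there, so day 0 is not the untreated fibroblast. The series text speaks of Ddx10 shRNAs in the plural, the sample labels name no hairpin, and no rescue is labelled, so effects of a single hairpin on other genes could not be checked. The replicates are called biological, but no label says that they are separate cultures, and p-values therefore measure only the spread between these samples.

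Ddx10 is a DEAD-box RNA helicase of the nucleolus, needed in yeast and mammals to build small ribosomal subunits. When fibroblasts receive OSKM, the earliest recorded events are faster division, the loss of the contractile and matrix-secreting fibroblast program, and the first steps of a mesenchymal-to-epithelial transition, in which cells gain junctions and keratins. The pluripotency network itself, with Nanog and its partners, is known to be switched on late and in few cells. Fibroblasts are also heavy secretory cells, and their endoplasmic reticulum chaperones are set by the unfolded protein response.

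The normalized read counts of the Ddx10 shRNA arm summed to 17.2 and 17.1 M (1 M is 1000000) per library at day 1, against 20.1 and 20.3 M at day 0, and the control arm had 17.7 and 17.4 M at day 1 against 21.3 and 20.8 M at day 0. The sum was therefore lower at day 1 in both arms, while the median gene stood at 336 and 343 at day 1 and 344 and 342 at day 0 in the Ddx10 shRNA arm. Estimated depths were 18.8 and 15.2 M reads at day 1 and 19.5 and 18.5 M at day 0. Replicates differed by a median of 0.154 (absolute log2 difference) at day 1 and 0.131 at day 0 in the Ddx10 shRNA arm, but 0.252 in the control arm at day 1.

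Ddx10 itself (ENSMUSG00000053289, mm10 chromosome 9, 53098635 to 53248053, minus strand) had 255 and 321 normalized read counts at day 1 and 313 and 319 at day 0 in the Ddx10 shRNA arm. In the control arm it had 804 and 921 at day 1 and 523 and 500 at day 0. All 4 Ddx10 shRNA libraries lay below all 4 control libraries, so the labels match the targeted transcript, and the days of the Ddx10 shRNA arm overlapped. The change within that arm was -0.14 on the log2 scale (SE 0.12, limma adjusted p = 0.334), and it turned to 0.0246 without replicate 1 of day 1. Fold changes here are differences of log2(value + 1), which understate the changes of low genes. Of the factors, Sox2 rose by 0.30 and Klf4 by 0.30, whereas Pou5f1 (Oct4) had a change of -0.08 (limma adjusted p = 0.291), which turned to 0.27 after quantile scaling and 0.16 with equal column sums. Myc fell by 0.26, a call that was lost after quantile scaling (-0.21, limma adjusted p = 0.0752), with equal column sums (-0.02) and without any single one of the 4 libraries. Reads from the retroviruses and from the endogenous loci cannot be told apart in these counts.

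Over the first day 7900 of 15757 genes changed in the Ddx10 shRNA arm (50.1% of those tested, limma adjusted p under 0.05). Of these, 4022 rose (25.5%) and 3878 fell (24.6%). Changes of more than 1 on the log2 scale were seen in 1769 genes that rose and 988 that fell, and changes of more than 3 in 194 and 105. When all columns were first scaled to equal sums, an alternative chosen after the data were seen, the median of all genes moved up by 0.23 and the split became 5906 higher and 2198 lower. The 2 libraries of day 1 lay above both of day 0 in 37.4% of all genes and below both in 37.7%, so a lack of overlap alone marks no gene.

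**Figure D1:**
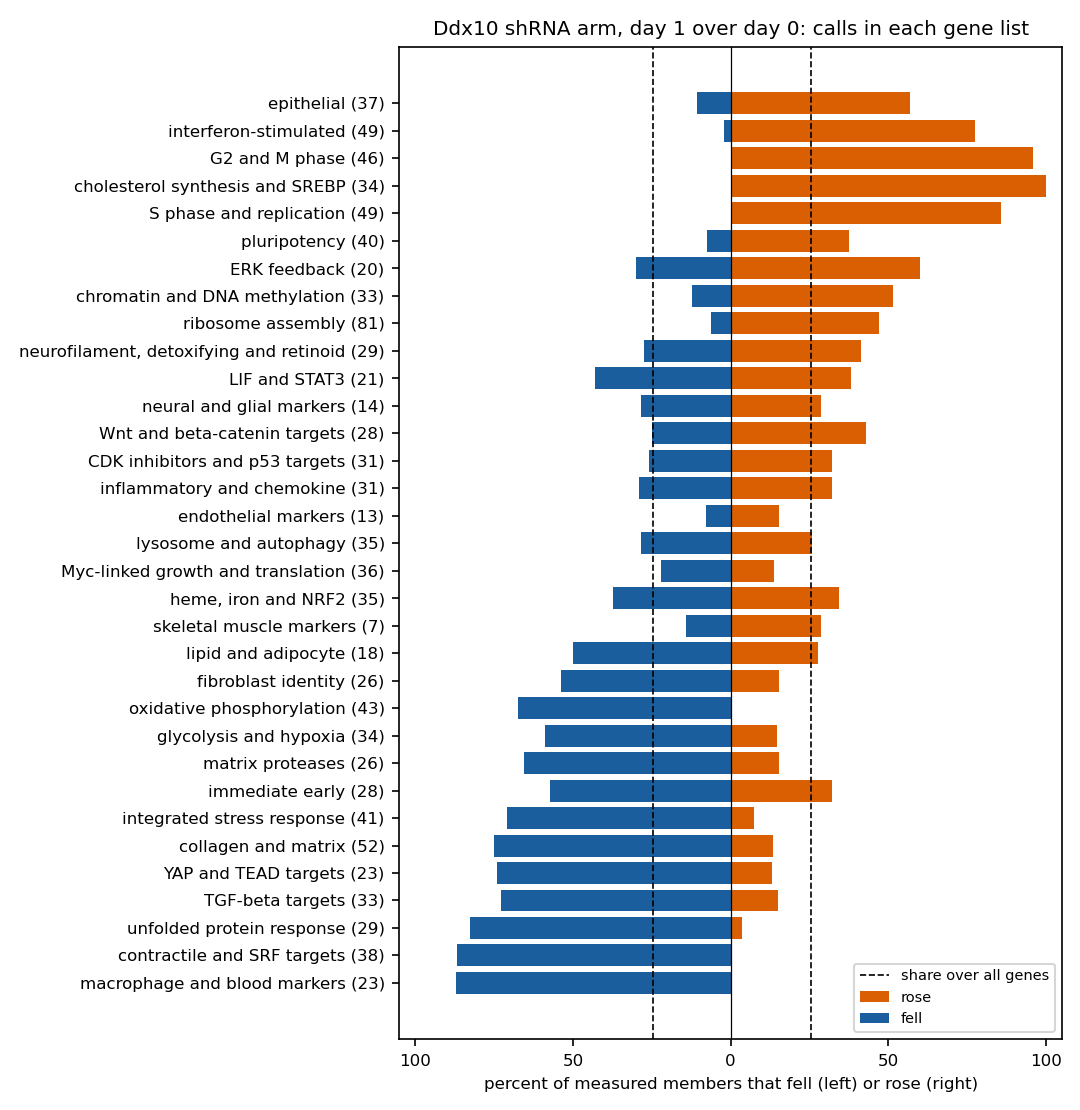
Share of the measured members of each of 33 gene lists that rose (orange, to the right) or fell (blue, to the left) at day 1 over day 0 in the Ddx10 shRNA arm, by limma at an adjusted p of 0.05; the number of measured members stands in brackets and the dashed lines mark the shares over all genes (25.5% rose, 24.6% fell). All 34 cholesterol genes and 44 of 46 genes of G2 and mitosis rose, while 33 of 38 contractile genes and 20 of 23 macrophage and blood markers fell.

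Genes of cell division rose almost without exception. Among 46 genes of G2 and mitosis, 44 rose and 0 fell, with a median change of 0.91 on the log2 scale beside a median of 0.00 over all genes (46 rose and 0 fell with equal column sums). In bulk samples, fewer cells of a type and less RNA per cell cannot be told apart, and the same holds for the share of cells that divide. Aspm, which holds the spindle poles together, had 1755 and 1978 normalized read counts at day 1 and 499 and 469 at day 0, a rise of 1.94 (SE 0.13, limma adjusted p = 1.24e-08). Hmmr, a spindle-binding protein, had 2514 and 2628 at day 1 and 763 and 735 at day 0. For both spindle genes the day 1 libraries were far above the day 0 libraries, and replicates lay close together. The kinesin motors Kif11, which pushes spindle poles apart, and Kif23, which acts in cytokinesis, rose by 1.56 and 1.30. At days 3, 5 and 7 Hmmr averaged 1195, 891 and 1127, which is below its day 1 level.

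Many of these genes share a promoter element called the CHR (cell cycle genes homology region), the letters TTTGAA or TTCGAA, through which the DREAM complex is known to hold mitotic genes silent in resting cells. In RefSeq promoters (GRCm38.p6, the build of mm10, 250 bases before to 50 after the start site), the letters were found on either strand in 33 of 43 promoters of the list (76.7%) and in 14.2% of 15061 promoters of measured genes. Windows around a match are shown for 4 genes that rose, because most promoters of this list hold these letters. Each window here and below shows the match furthest upstream. Ccnb2 had 2 matches and Top2a 4, and those not shown lie nearer the start site. Capitals mark the CHR letters or their reverse complement, each sequence runs 5′ to 3′ on the strand of the gene, and a match describes the letters only.
Kif11 (chr19:37376338-37376393, plus strand): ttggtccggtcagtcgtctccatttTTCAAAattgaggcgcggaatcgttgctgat
Cdc20 (chr4:118437331-118437386, minus strand): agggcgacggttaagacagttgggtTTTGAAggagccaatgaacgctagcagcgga
Ccnb2 (chr9:70421691-70421746, minus strand): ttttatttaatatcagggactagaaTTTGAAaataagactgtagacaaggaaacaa
Top2a (chr11:99024338-99024393, minus strand): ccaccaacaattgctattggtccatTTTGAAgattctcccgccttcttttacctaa
Cdc20, the activator of the anaphase-promoting complex, rose by 0.75 and the cyclin gene Ccnb2 by 0.81; Cdc20, Ccnb2 and Top2a, the topoisomerase that untangles chromosomes, were taken for their promoters after their values were seen. Cdk1, the mitotic kinase itself, had 1755 and 2288 counts at day 1 and 1474 and 1467 at day 0 and missed the threshold (log2 0.45, limma adjusted p = 0.0845).

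DNA replication genes rose with them, by less. Of 49 S phase genes 42 rose and 0 fell, at a median of 0.59 (48 rose and 0 fell with equal column sums). Lig1, the ligase that joins Okazaki fragments, had 1566 and 1546 counts at day 1 and 612 and 694 at day 0 (log2 1.25, SE 0.09, limma adjusted p = 3.45e-08). Both day 1 libraries were high and both day 0 libraries low, with no overlap. Pole, the catalytic subunit of the leading-strand polymerase, rose by 1.26, Uhrf1, which brings the maintenance methyltransferase to replicated DNA, by 1.00, and the polymerase clamp Pcna by 0.77. The binding letters of E2F factors (TTTCCCGC, TTTGGCGC, TTTCGCGC or TTTGCCGC, either strand) were in 17 of 46 promoters of this list (37.0%) and in 3.59% of the promoters of measured genes. The windows below show the element upstream of the start site in 3 genes that rose, with the letters in capitals; where matches overlap, the capitals run through both.
Uhrf1 (chr17:56304103-56304160, plus strand): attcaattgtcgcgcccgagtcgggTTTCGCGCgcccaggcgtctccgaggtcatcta
Mcm6 (chr1:128359783-128359840, minus strand): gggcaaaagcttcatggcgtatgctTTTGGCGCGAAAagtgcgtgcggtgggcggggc
Mcm5 (chr8:75109331-75109388, plus strand): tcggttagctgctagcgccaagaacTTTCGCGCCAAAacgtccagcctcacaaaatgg
Mcm5 and Mcm6, subunits of the replicative helicase picked for these windows after their values were seen, rose by 0.77 and 0.53.

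Genes that brake the cycle had shares close to those of all genes. Among 31 CDK inhibitors and p53 targets 10 rose and 8 fell, but 16 rose and 2 fell with equal column sums, at medians of 0.03 and 0.26. Cdkn1a (p21), the main CDK inhibitor under p53, had 13727 and 13510 counts at day 1 and 18636 and 18820 at day 0, a fall of 0.46 that missed the threshold after quantile scaling (-0.05, limma adjusted p = 0.571). Phlda3, an Akt inhibitor induced by p53, fell by 0.87, while Cdkn2c (p18), an inhibitor of Cdk4 and Cdk6, rose by 0.85 and the p53 target Perp, a desmosome protein, by 0.69.

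Transcripts of ribosome assembly, the process in which Ddx10 works, were raised in part. Of 81 assembly and nucleolar genes 38 rose and 5 fell, at a median of 0.26, and with equal column sums 58 rose and 0 fell. Ncl (nucleolin) had 22781 and 23758 counts at day 1 and 10656 and 10045 at day 0, a rise of 1.17 (SE 0.07, limma adjusted p = 2.40e-09). Both day 1 libraries were high, with no overlap between the days. Npm1 (nucleophosmin) rose by 0.77, Nop58, a core protein of box C/D small nucleolar particles, by 0.64 and the helicase gene Ddx21 by 0.63. Growth genes linked to Myc depended on the scaling: of 36, 5 rose and 8 fell, but 15 rose and 2 fell with equal column sums, and the list's median of -0.03 turned to 0.21 with equal column sums and 0.09 after quantile scaling. Within them Ppat, the first enzyme of purine synthesis, rose by 0.70, and the transferrin receptor gene Tfrc fell by 1.60.

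Chaperone transcripts of the endoplasmic reticulum fell sharply. Of 29 genes of the unfolded protein response 24 fell and 1 rose, at a median of -0.86, and with equal column sums 21 fell and 1 rose. The gene that rose was Atf6, a sensor of the response, at 0.27. Calr (calreticulin) had 9863 and 9676 counts at day 1 and 31715 and 31876 at day 0, a fall of 1.70 (SE 0.06, limma adjusted p = 6.58e-12). The protein disulfide isomerase genes Pdia6 and Pdia4 fell by 1.84 and 1.64, and Xbp1, the transcription factor spliced by the sensor Ire1, by 1.74. Calr was low in both day 1 libraries and high in both day 0 libraries. At days 3, 5 and 7 Calr averaged 11727, 12676 and 12962 in the same arm, still far below day 0.

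The element through which Atf6 and Xbp1 are known to act on these promoters, the ERSE (endoplasmic reticulum stress response element), is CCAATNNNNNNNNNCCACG. It was found in 8 of 24 promoters of the list (33.3%), against 0.133% (20) of the 15061 promoters of measured genes. To show the shared letters, windows are printed for 4 genes that fell and 1 that was not called, with the element or its reverse complement in capitals.
Calr (chr8:84847050-84847118, minus strand): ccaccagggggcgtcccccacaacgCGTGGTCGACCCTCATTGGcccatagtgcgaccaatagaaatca
Pdia6 (chr12:17266466-17266534, plus strand): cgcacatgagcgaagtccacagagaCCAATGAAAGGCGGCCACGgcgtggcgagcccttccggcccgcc
Hspa5 (chr2:34772000-34772068, plus strand): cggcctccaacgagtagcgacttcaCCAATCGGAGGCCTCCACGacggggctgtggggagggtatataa
Creld2 (chr15:88819495-88819563, plus strand): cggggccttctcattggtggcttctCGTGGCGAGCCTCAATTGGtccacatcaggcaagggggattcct
Canx (chr11:50325775-50325843, minus strand): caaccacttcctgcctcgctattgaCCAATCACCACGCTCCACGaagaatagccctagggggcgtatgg
Hspa5 (BiP), the master chaperone of the compartment, had 10600 and 12350 counts at day 1 and 36185 and 33043 at day 0 (log2 -1.60), and Creld2, a secreted chaperone cofactor, fell by 1.55. Canx (calnexin), with the same letters, had 15839 and 17631 counts at day 1 and 18849 and 19406 at day 0 (log2 -0.19, limma adjusted p = 0.106). The remaining genes with the element that fell were Hsp90b1 (-1.34), Syvn1 (-0.51) and Dnajc3 (-0.27), so the same letters went with changes of very different size. Hspa5, Creld2, Canx, Hsp90b1, Syvn1 and Dnajc3 were taken for the element after their values were seen.

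Most target transcripts of the integrated stress response, which the factor Atf4 drives when amino acids run short, fell as well. The response itself was not measured. Of 41 targets 29 fell and 3 rose, at a median of -0.59, and 21 fell and 9 rose with equal column sums. Atf5, a relative of Atf4, had 1056 and 867 counts at day 1 and 2941 and 2930 at day 0 (log2 -1.62). The mitochondrial enzymes Aldh1l2 of folate metabolism and Pck2 of phosphoenolpyruvate synthesis fell by 1.77 and 1.55. Slc7a11, the cystine carrier of glutathione supply, went the other way, with 567 and 555 counts at day 1 and 173 and 124 at day 0, a rise of 1.93.

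Transcripts of sterol synthesis rose as a block. All 34 measured genes of cholesterol synthesis and the SREBP system rose, by at least 0.19 (Srebf2) and at a median of 0.70, and all 34 also rose after quantile scaling and with equal column sums. Elovl6, which lengthens fatty acids, had 3477 and 3865 counts at day 1 and 1244 and 1178 at day 0 (log2 1.60). Insig1, which holds SREBP in the endoplasmic reticulum when sterol is plentiful, had 3691 and 3909 at day 1 and 1802 and 1867 at day 0 (log2 1.05, SE 0.06, limma adjusted p = 3.57e-09). Both genes were higher in each day 1 library than in any day 0 library. The sterol dehydrogenase gene Nsdhl rose by 1.28. The SRE letters TCACCCCAC or TCACGCCAC were in 1 of 28 promoters of the list (3.57%), that of Hmgcs1, and in 0.764% of the promoters of measured genes. At days 3, 5 and 7 Elovl6 averaged 2579, 2700 and 2896, between its day 0 and day 1 levels.

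Most genes of the contractile apparatus fell. Of 38 genes, mostly actin, myosin and actin-binding genes under the factor SRF, 33 fell and 0 rose, at a median of -1.28 (32 fell and 1 rose with equal column sums). The list also held Srf itself, its coactivator genes Mrtfa, Mrtfb and Myocd, and the intermediate filament gene Des. The summed level of the list was 348061 and 323399 counts at day 1 and 864762 and 913358 at day 0. Tagln (transgelin), a marker of smooth muscle and activated fibroblasts, had 5699 and 5067 counts at day 1 and 43159 and 45323 at day 0, a fall of 3.04 (SE 0.14, limma adjusted p = 1.55e-10). Acta2, smooth muscle actin, had 14282 and 12422 at day 1 and 97673 and 104930 at day 0 (log2 -2.93). In both genes each day 0 library held more than 6 times the counts of each day 1 library. The actin-binding genes Csrp1 and Cnn2 fell by 2.40 and 2.00. The course went on downward in this arm, and Tagln averaged 383, 204 and 199 at days 3, 5 and 7.

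**Figure D2:**
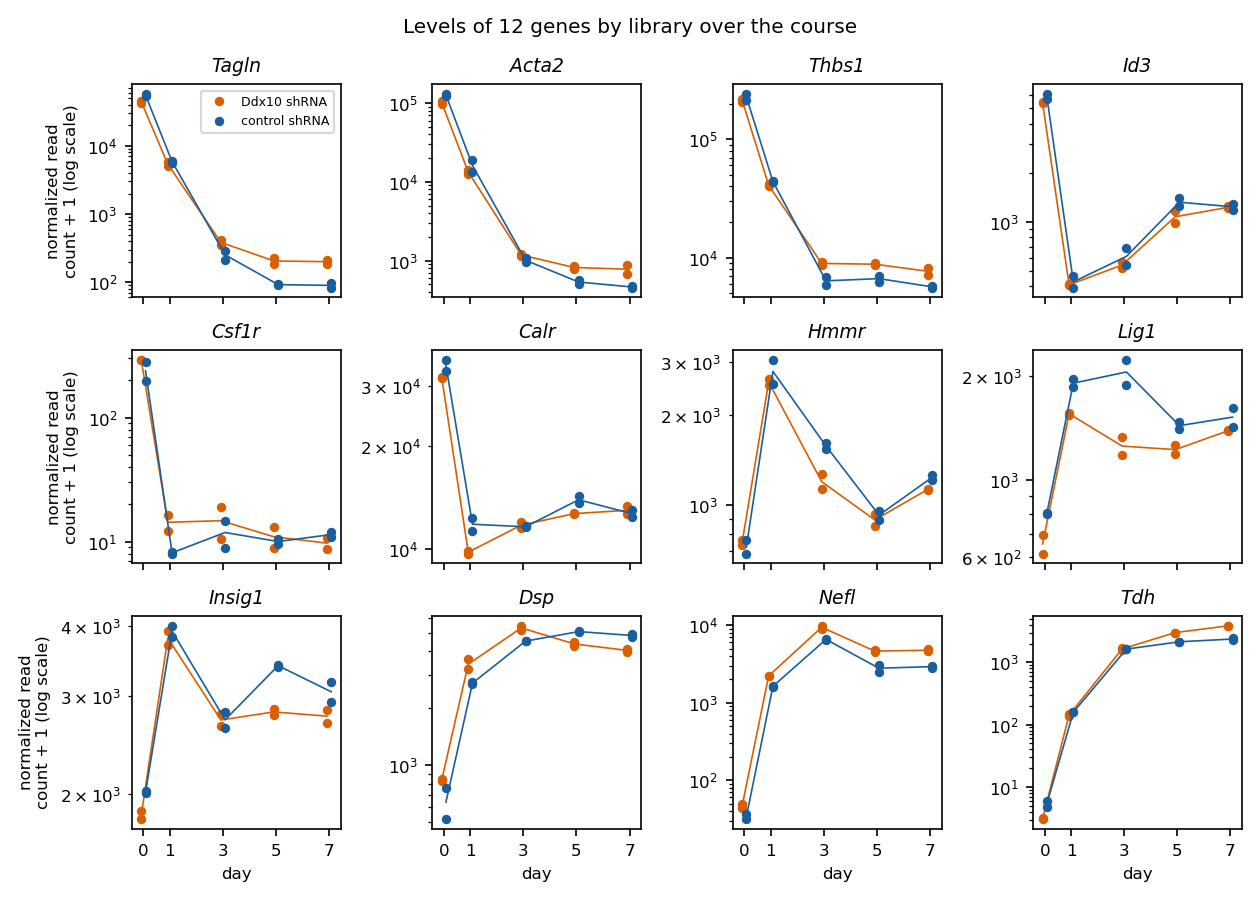
Normalized read count + 1 (log axis) of 12 genes in every library against the day, with lines through the means of 2 libraries; orange is the Ddx10 shRNA arm and blue the control arm. Tagln, Acta2 and Thbs1 had lower means at days 3, 5 and 7 than at day 1, Id3 and Calr were lowest in the Ddx10 shRNA arm at day 1, Hmmr and Insig1 were highest at day 1, and Nefl and Tdh rose further by day 3.

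Target transcripts of TGF-beta and Yap1 fell in the same step; the signals themselves were not measured. Of 33 targets of TGF-beta, known as an activator of fibroblasts, 24 fell and 5 rose (median -0.84; 19 fell and 7 rose with equal column sums). Id3, an inhibitor of basic helix-loop-helix factors that answers BMP and TGF-beta, had 410 and 404 counts at day 1 and 5409 and 5347 at day 0, a fall of 3.72 (SE 0.11, limma adjusted p = 1.87e-12). Ccn2, a matricellular growth factor, had 7287 and 7336 at day 1 and 42548 and 44552 at day 0 (log2 -2.57). Day 1 and day 0 libraries of these genes did not come near each other. Among 23 targets of Yap1, the Hippo pathway effector that senses stretch, 17 fell and 3 rose (median -0.81; 15 and 4 with equal column sums). Ccn2 was on both lists, the tissue factor gene F3 fell by 2.84 and the Yap1 regulator gene Amotl2 by 2.19. Nt5e (CD73), an enzyme that makes adenosine, was counted among the Yap1 targets but had 2328 and 2856 counts at day 1 and 405 and 439 at day 0, a rise of 2.61.

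Matrix genes fell with them. Of 52 collagen, matrix and collagen-modifying genes 39 fell and 7 rose, at a median of -0.77 (33 fell and 9 rose with equal column sums). Thbs1 (thrombospondin 1), an activator of latent TGF-beta, had 41541 and 40049 counts at day 1 and 208392 and 219750 at day 0 (log2 -2.39, SE 0.09, limma adjusted p = 1.07e-11). The cross-linking enzyme gene Loxl3 fell by 2.78 and the fibrillar collagen gene Col5a2 by 1.57. Lum (lumican), a small proteoglycan that spaces collagen fibrils, rose by 3.5, with 749 and 817 counts at day 1 and 65.1 and 71.4 at day 0. Of 26 matrix proteases and their inhibitors 17 fell and 4 rose (13 fell and 7 rose with equal column sums), among them Mmp11 (-1.90) and the aggrecan-cleaving Adamts5 (-1.83), which fell. Fibroblast identity genes fell less evenly: of 26, 14 fell and 4 rose, at a median of -0.34 (10 fell and 6 rose with equal column sums). Prrx2, a homeobox factor of limb and face mesenchyme, fell by 2.66, Snai1, a repressor of epithelial cadherin, by 1.76 and S100a4 by 1.03, whereas the homeobox gene Meox2 rose by 1.83.

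The steepest falls named were mostly those of myeloid genes. Of 23 measured macrophage and blood markers 20 fell and 0 rose, at a median of -4.14 (19 fell and 0 rose with equal column sums), and their summed level was 863 and 739 counts at day 1 against 5712 and 5689 at day 0. Lyz2, the lysozyme of macrophages, had 81.1 and 51.6 counts at day 1 and 2420 and 2627 at day 0 (log2 -5.26, SE 0.51, limma adjusted p = 8.29e-07). Csf1r, the receptor on which macrophages depend, had 15.4 and 11.3 at day 1 and 290 and 289 at day 0. Neither gene had a day 1 library near those of day 0. Of the 12 largest falls by the naming rule, 6 were on the list (Tyrobp, Fcgr3, Msr1, Lyz2, C1qa and C1qc). Another 5, the C-type lectin gene Clec4d (-6.46), the surface receptor genes Cd300lb (-5.69) and Cd84 (-5.68), the myosin gene Myo1f (-5.53) and Ms4a7 (-5.19), are known from myeloid cells. The last, the transcription factor gene Atoh8, had 15.5 and 18 counts at day 1 and 797 and 903 at day 0 (log2 -5.58). Several of these genes were at or near 0 at day 1, so their fitted changes depend on the pseudocount. The control arm lost the same list, with 20 of 23 lower. The part of this loss in the other changes was not tested. Among markers of other cells, beside 25.5% of all genes that rose and 24.6% that fell, 2 of 13 endothelial genes rose and 1 fell, 2 of 7 muscle genes rose and 1 fell, and 4 of 14 neural and glial genes rose and 4 fell. Among those the endothelial receptor gene Flt1 fell by 1.51, while the largest change in the endothelial list was 3.41, in the cadherin gene Cdh5. All 4 libraries lay under 10 counts at 4 of the 13 endothelial genes, 4 of the 7 muscle genes and 3 of the 14 neural and glial genes. Only 7 of the 15 muscle markers listed were measured.

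Junction and epithelial genes began to rise. Of 37 epithelial genes 21 rose and 4 fell, at a median of 1.28, with 15 rises and 5 falls after quantile scaling and 24 and 3 with equal column sums. Dsp (desmoplakin), which anchors keratin to desmosomes, had 3628 and 3213 counts at day 1 and 850 and 824 at day 0 (log2 2.03, SE 0.12, limma adjusted p = 2.29e-09). The tight junction gene Cldn1 rose by 2.59 and the membrane protease gene St14 by 2.13. Each of these was higher in both day 1 libraries than in either day 0 library. Cdh1 (E-cadherin), looked up for its role in the transition, rose to 319 and 334 counts at day 1, against 40.7 and 22.8 at day 0. Krt7, a keratin of simple epithelia, fell by 3.14 against the direction of the list. At 12 of the 37 genes all 4 libraries lay under 10 counts.

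Part of the pluripotency genes rose. Of 40, 15 rose and 3 fell (median 0.54), while 9 rose and 3 fell after quantile scaling and 17 rose and 2 fell with equal column sums; at 18 of them all 4 libraries lay under 10 counts. Tdh, the threonine dehydrogenase on which mouse embryonic stem cells rely, had 145 and 138 counts at day 1 and 2.02 and 2.15 at day 0 (log2 5.53, SE 0.10, limma adjusted p = 3.01e-15). Tdh then averaged 1642, 2997 and 3848 at days 3, 5 and 7. Tfcp2l1, a STAT3 target that sustains naive pluripotency, rose by 5.06 and the DNA demethylase gene Tet2 by 1.91. Nanog, looked up for its role, had 3.95 and 4.29 counts at day 1 and 6.88 and 5.93 at day 0 (limma adjusted p = 0.492). Among the falls was the early factor gene Klf2 (-2.11).

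Signalling lists next to pluripotency moved in mixed ways. Of 28 Wnt targets 12 rose and 7 fell (13 rose and 5 fell with equal column sums), and their median of 0.04 turned to -0.11 after quantile scaling. Tcf7, a nuclear partner of beta-catenin, had 268 and 240 counts at day 1 and 42.8 and 38.2 at day 0 (log2 2.62), and Apcdd1, an inhibitor of Wnt receptors, rose by 1.42, while the receptor gene Fzd7 fell by 1.2. Of 20 genes of ERK feedback 12 rose and 6 fell (13 rose and 4 fell with equal column sums). Their rises included the ETS factor gene Etv1 (1.93), the inhibitor gene Spry4 (0.76) and the cyclin gene Ccnd1 (0.62). In the LIF and STAT3 list 8 of 21 rose and 9 fell (10 rose and 7 fell with equal column sums), with Il6ra, an interleukin 6 receptor chain, at 1.68 and the feedback inhibitor gene Cish at -2.26. Of 33 chromatin genes 17 rose and 4 fell (24 rose and 1 fell with equal column sums). The rises included Tet2, the maintenance methyltransferase gene Dnmt1 (0.96), its remodelling partner Hells (1.52) and the H3K9 methyltransferase gene Suv39h1 (0.85).

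Respiratory chain genes fell by small amounts, and the calls in all the energy metabolism lists depended on the scaling. Of 43 respiratory chain genes 29 fell and 0 rose (median -0.40), but 12 fell and 2 rose with equal column sums. Ndufb6, of complex I, had 650 and 653 counts at day 1 and 1228 and 1162 at day 0 (log2 -0.87), and Cox5a, of complex IV, fell by 0.63. Of 34 glycolysis and hypoxia genes 20 fell and 5 rose, against 14 and 12 with equal column sums. P4ha1, a collagen prolyl hydroxylase induced by hypoxia, fell by 1.71, the peptide hormone gene Adm by 1.14 and the glycolytic enzyme genes Pgk1 and Tpi1 by 0.81 and 0.80. Of 18 lipid genes 9 fell and 5 rose (7 fell and 6 rose with equal column sums). Cebpa, a master factor of adipocytes, had 33.8 and 30.4 counts at day 1 and 266 and 311 at day 0 (log2 -3.13), and the lipase gene Lpl rose by 1.08. Of 35 lysosome and autophagy genes 9 rose and 10 fell, but 18 rose and 6 fell with equal column sums and 15 rose and 7 fell after quantile scaling, with the sialidase gene Neu1 at 1.2 and Wipi1, of early autophagosomes, at -1.44.

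Metal and aldehyde defence genes changed strongly in both directions. Of 35 heme, iron and antioxidant genes 12 rose and 13 fell, against 15 and 10 with equal column sums, and their median of -0.10 turned to 0.14. Mt2 and Mt1, metallothioneins that bind zinc, rose by 3.61 and 2.64. Aldh3a1, an aldehyde dehydrogenase of the cornea, had 2551 and 2431 counts at day 1 and 152 and 139 at day 0 (log2 4.09). In contrast Hmox1, the heme oxygenase under the factor Nrf2, had 2426 and 2158 at day 1 and 8087 and 8421 at day 0 (log2 -1.85), and Me1, the malic enzyme that supplies NADPH, fell by 1.14. For each of these genes the 2 days were clearly apart.

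The largest rises were a mixed group of genes with low counts at day 0. Tmprss11b, a transmembrane serine protease of squamous epithelia, had 261 and 295 counts at day 1 and 0.00 and 5.51 at day 0 (log2 6.77). Stra6, the retinol receptor, had 156 and 110 at day 1 and 0.987 and 1.05 at day 0 (log2 6.03), and Nefl, the light neurofilament chain, 2224 and 2226 at day 1 and 48.5 and 42.9 at day 0 (log2 5.58). Nefl stood highest of these at day 1 and averaged 9429, 4645 and 4764 at days 3, 5 and 7. Others were the neuropeptide gene Calcb (5.55), the neuropeptide Y receptor gene Npy2r (5.36), the GABA-synthesising enzyme gene Gad2 (5.32), the glycosyltransferase gene Mgat4c (5.38), the lectin gene Clec1a (5.26) and Ccdc190 (5.08). The rule also gave a second identifier with the symbol Map4 (ENSMUSG00000103508), absent from the annotation used here, with 156 and 30.5 counts at day 1 and listed at 0 in both day 0 libraries. It is uncertain, since the main Map4 identifier (ENSMUSG00000032479) fell by 0.51. Of 29 neurofilament, detoxifying and retinoid genes in all, 12 rose and 8 fell (16 rose and 6 fell with equal column sums), among them the esterase gene Ces1f (4.87).

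Interferon-stimulated genes rose, with replicates that differed. Of 49 genes induced by type I interferon 38 rose and 1 fell, at a median of 1.18 (39 rose and 1 fell with equal column sums). Oas2, a sensor of double-stranded RNA, had 202 and 374 counts at day 1 and 3.63 and 3.01 at day 0 (log2 6.0, SE 0.27, limma adjusted p = 1.38e-09). Rtp4, a chaperone of receptors that interferon induces, had 86.3 and 234 at day 1 and 13.4 and 18.7 at day 0 (log2 3.09). Replicate 2 of day 1 was the higher for both, and the list summed to 15531 and 22749 counts at day 1 and 12901 and 12009 at day 0. Eif2ak2 (PKR), the kinase that halts translation on viral RNA, rose by 1.56 and the RNA-binding Ifit2 by 0.99. Samhd1, a nucleotide hydrolase that limits retroviruses, was the gene that fell (-0.94). Oas2 went on to average 5469, 8731 and 8071 at days 3, 5 and 7. Of 31 chemokine and inflammatory genes 10 rose and 9 fell, but 15 rose and 6 fell with equal column sums. The alarmin gene Il33 rose by 3.33 and the monocyte attractant gene Ccl2 by 1.26, and Cxcl12, a stromal chemokine, fell by 2.58.

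The immediate early genes, which answer growth signals within minutes, split. Of 28, 9 rose and 16 fell, at a median of -0.58 (9 rose and 13 fell with equal column sums). Gadd45b, a stress sensor, had 163 and 173 counts at day 1 and 845 and 763 at day 0 (log2 -2.25), and the AP-1 subunit gene Fosl2 fell by 1.37. Egr1, a zinc finger factor under ERK and SRF, had 3127 and 3553 at day 1 and 1341 and 1319 at day 0, a rise of 1.33. Its relative Egr3 had 77.3 and 73.0 at day 1 and 6.20 and 11.0 at day 0 (log2 3.04). The days did not overlap for any of these 4 genes.

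The step was then set beside that of the control arm, which shares no library with it, to ask where the change differed between the arms. In the control arm 8664 genes changed (55.0% of those tested), of which 4452 rose (28.3%) and 4212 fell (26.7%). Both steps called 6559 genes, which is 83.0% of the genes called in the Ddx10 shRNA arm and 75.7% of those called in the control arm, and 6545 of them moved the same way. Across genes, which are not independent replicates, the changes of the arms correlated at r = 0.845. A difference between the arms in the change itself was called for 43 genes (0.273% of 15757, limma adjusted p under 0.05), of which 10 were higher (0.0635%) and 33 lower (0.209%) in the Ddx10 shRNA arm; 2023 passed an unadjusted p under 0.05. In 36 of the 43 the change was smaller in size in the Ddx10 shRNA arm. Of the 43, 35 also differed between the arms at day 0 and 6 at day 1, by limma on the same libraries (adjusted p under 0.05). Over all genes 521 differed between the arms at day 0 (3.31%) and 23 at day 1 (0.146%). For most of the 43 the arms were apart at day 0 in these libraries. The tested difference is itself made of the gaps between the arms at day 0 and at day 1. Both counts for the 43 therefore come partly from the selection and are a description only. The standard error of such a difference had a median of 0.220 over all genes.

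**Figure D3:**
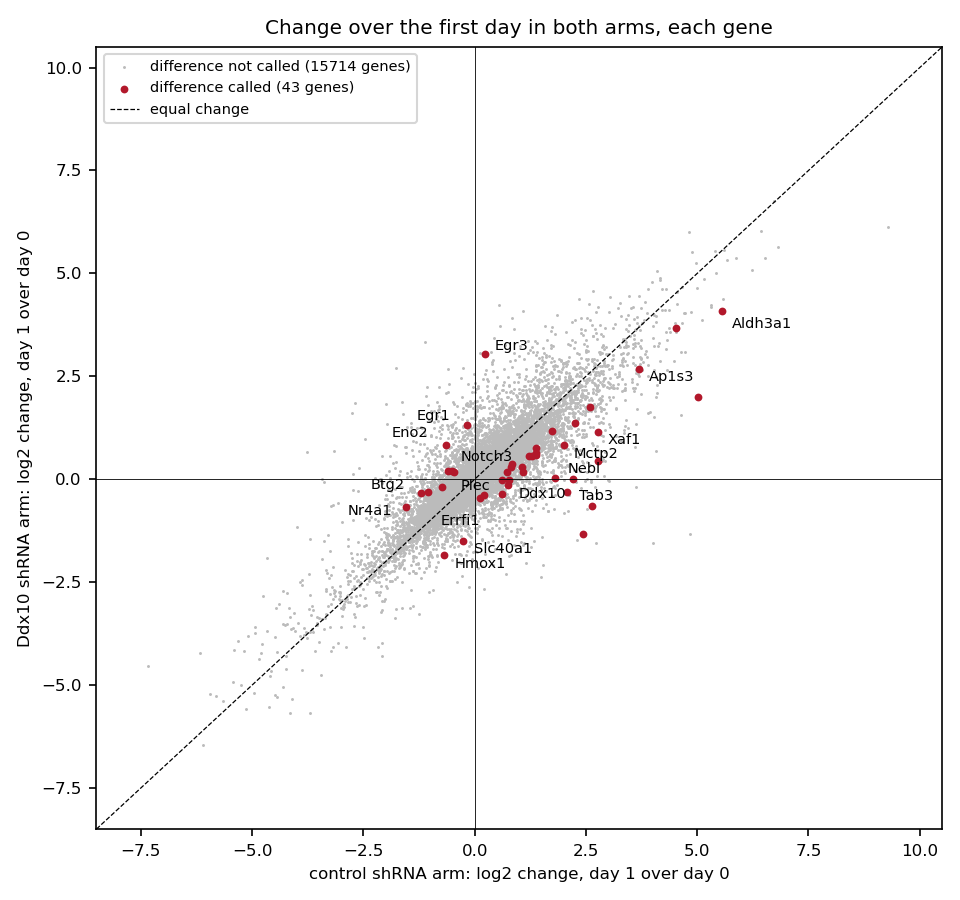
Log2 change at day 1 over day 0 of each gene in the Ddx10 shRNA arm (vertical) against the control arm (horizontal), with a dashed line for equal change. Red marks the 43 genes whose change differed between the arms. Names are given for Ddx10 and the 8 largest differences in each direction among genes with a mean of at least 50 and a proper symbol. Egr3 and Egr1 lie above the line and Tab3, Nebl and Xaf1 below it.

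These calls depended on the settings. Only 1 gene was called when the fit held just the 8 libraries compared, 9 with library weights, and between 21 and 662 when single libraries were left out. Of the Ddx10 shRNA arm, leaving out replicate 1 of day 1 gave 21, replicate 2 of day 1 gave 67 and replicate 2 of day 0 gave 84. Of the control arm, leaving out replicate 1 of day 1 gave 662, replicate 2 of day 1 gave 106, replicate 1 of day 0 gave 72 and replicate 2 of day 0 gave 108. None of the 17 genes named here for the difference (Ddx10 among them) kept its call in every alternative, and all kept their direction. The spread between the control replicates at day 1 was the widest of the 10 groups, and its part in these counts was not tested.

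Immediate early genes were the group with most of these calls. In 26 of 28 the change was more positive in the Ddx10 shRNA arm, with medians of -0.58 in that arm and -0.93 in the control arm, and 5 passed the test of the difference (1 with only the 8 libraries compared, 15 without control replicate 1 of day 1). Egr1 had 3127 and 3553 counts at day 1 against 1341 and 1319 at day 0 in the Ddx10 shRNA arm, and 3500 and 3341 at day 1 against 3802 and 3930 at day 0 in the control arm, a difference of 1.5 (limma adjusted p = 0.00823). The arms thus met at day 1 and stood apart at day 0, where both Ddx10 shRNA libraries were low. Nr4a1, an orphan nuclear receptor, had 1342 and 1288 at day 1 against 2068 and 2106 at day 0 in the Ddx10 shRNA arm, and 1457 and 1236 at day 1 against 3738 and 4089 at day 0 in the control arm (difference 0.88, limma adjusted p = 0.00648). Btg2, which slows division, showed the same pattern (0.87), as did Egr3 (2.81) and Jun (0.66), the last picked after its values were seen. Outside this list the difference was positive for the enolase gene Eno2 (1.46), the cytolinker gene Plec (0.78), the EGF receptor inhibitor gene Errfi1 (0.73) and the receptor gene Notch3 (0.71).

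**Figure D4:**
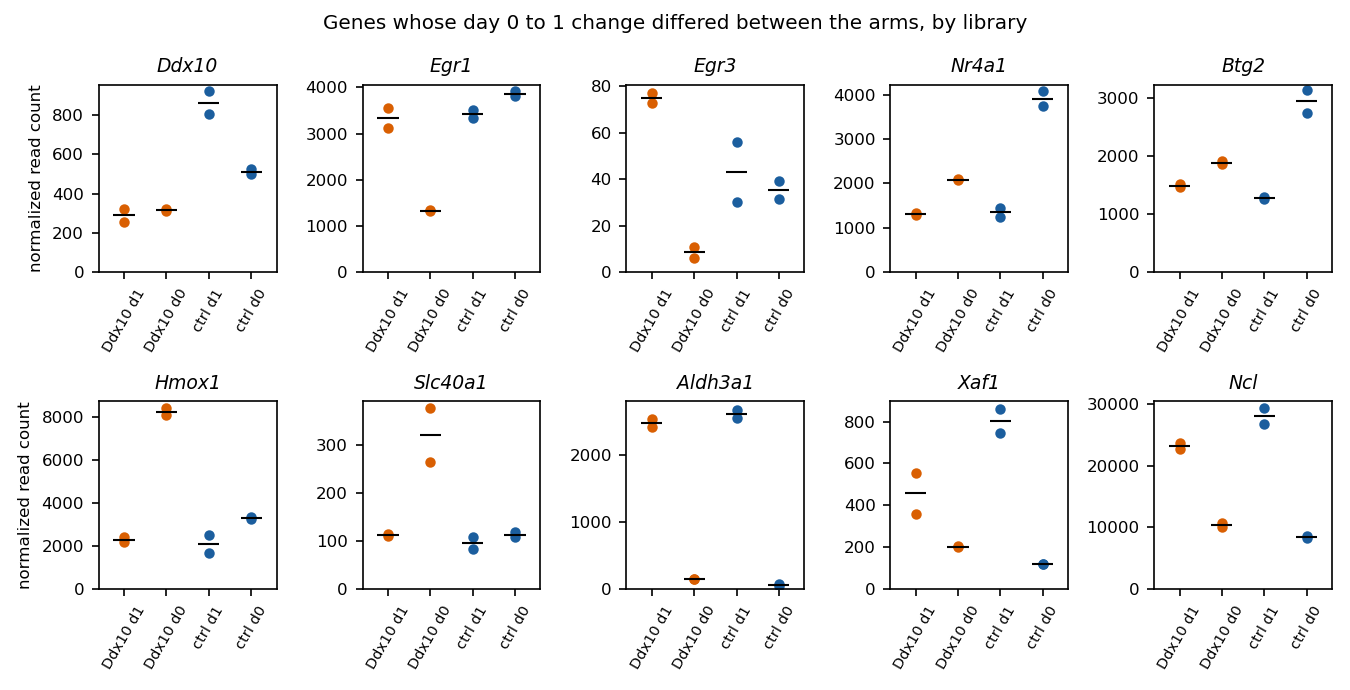
Normalized read counts of 10 genes in each of the 8 libraries (points) with group means (bars), for the Ddx10 shRNA arm at day 1 and day 0 (orange) and the control arm at day 1 and day 0 (blue), on axes from 0. For Egr1, Nr4a1, Btg2 and Hmox1 the arms are close at day 1 and apart at day 0; for Ddx10, Xaf1 and Ncl the control arm is higher at day 1.

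The 8 largest negative differences included iron, aldehyde and interferon genes. Hmox1 had 2426 and 2158 counts at day 1 against 8087 and 8421 at day 0 in the Ddx10 shRNA arm, and 2523 and 1667 at day 1 against 3350 and 3245 at day 0 in the control arm, a difference of -1.17 (limma adjusted p = 0.0144). Slc40a1 (ferroportin), the only known exporter of iron, had 109 and 113 at day 1 against 376 and 264 at day 0 in the Ddx10 shRNA arm, and 81.9 and 109 at day 1 against 107 and 118 at day 0 in the control arm (-1.24). Both genes were highest at day 0 of the Ddx10 shRNA arm. Xaf1, an apoptosis gene induced by interferon, had 358 and 554 at day 1 against 202 and 197 at day 0 in the Ddx10 shRNA arm, and 745 and 861 at day 1 against 117 and 118 at day 0 in the control arm (-1.61, limma adjusted p = 0.00399). It rose in both arms, by less in the Ddx10 shRNA arm, and the arms did not overlap at day 1. The others were the signalling adaptor gene Tab3 (-2.38), the actin-binding gene Nebl (-1.77), Aldh3a1 (-1.46), the membrane protein gene Mctp2 (-1.17) and the vesicle adaptor gene Ap1s3 (-1.0). Ddx10 differed by -0.89 (limma adjusted p = 0.0343), since it rose by 0.75 in the control arm. Nucleolin (Ncl) differed by -0.57 (limma adjusted p = 0.0234), with a rise of 1.17 in the Ddx10 shRNA arm and 1.74 in the control arm.

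Over all genes the step of the Ddx10 shRNA arm had a slope of 0.80 on that of the control arm. Noise in the control changes lowers such a slope even where the steps are equal, so it does not measure a weaker step. Some lists had a smaller median change in the Ddx10 shRNA arm and others a larger one, with few calls. Among the larger were ERK feedback (0.37, against 0.13 in the control arm), pluripotency (0.54 against 0.29) and epithelial genes (1.28 against 1.21). Each of these lists had 0 calls of a difference. Gene by gene, their median differences were 0.30, 0.11 and 0.14, below 0 in 4 of 20, 13 of 40 and 15 of 37 genes. For pluripotency the median difference became 0.03 after quantile scaling, with 19 of 40 below 0. In the interferon list the difference was below 0 in 46 of 49 genes, as it was in 49.5% of all genes. The medians were 1.18 in the Ddx10 shRNA arm and 2.10 in the control arm, and the median difference of -0.82 became -0.36 without replicate 1 of day 1 in the Ddx10 shRNA arm and -1.29 without replicate 2; Xaf1 was the single call, and without replicate 2 there were 16. In the control arm the list summed to 24727 and 28329 counts at day 1 and 11921 and 12280 at day 0. It was below 0 in 34 of 46 genes of G2 and mitosis, with medians of 0.91 in the Ddx10 shRNA arm and 1.16 in the control arm and 0 calls. The same held for 58 of 81 ribosome assembly genes, with medians of 0.26 in the Ddx10 shRNA arm and 0.33 in the control arm and 2 calls. The contractile list, the unfolded protein response and sterol synthesis had 0 calls of a difference. Their medians in the Ddx10 shRNA arm and then the control arm were -1.28 and -1.34, -0.86 and -0.81, and 0.70 and 0.82. Gene by gene, however, the difference in sterol synthesis was below 0 in only 13 of 34 genes (median 0.02). With equal column sums it was below 0 in 19 of them. Among lists that mostly fell, the difference was below 0 in 13 of 52 collagen and matrix genes and 10 of 43 respiratory chain genes. It was below 0 in 11 of 38 contractile genes, but in 19 after quantile scaling and 16 with equal column sums. The other direction was seen in the unfolded protein response (20 of 29), and macrophage and blood markers were near even (11 of 23).

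**Figure D5:**
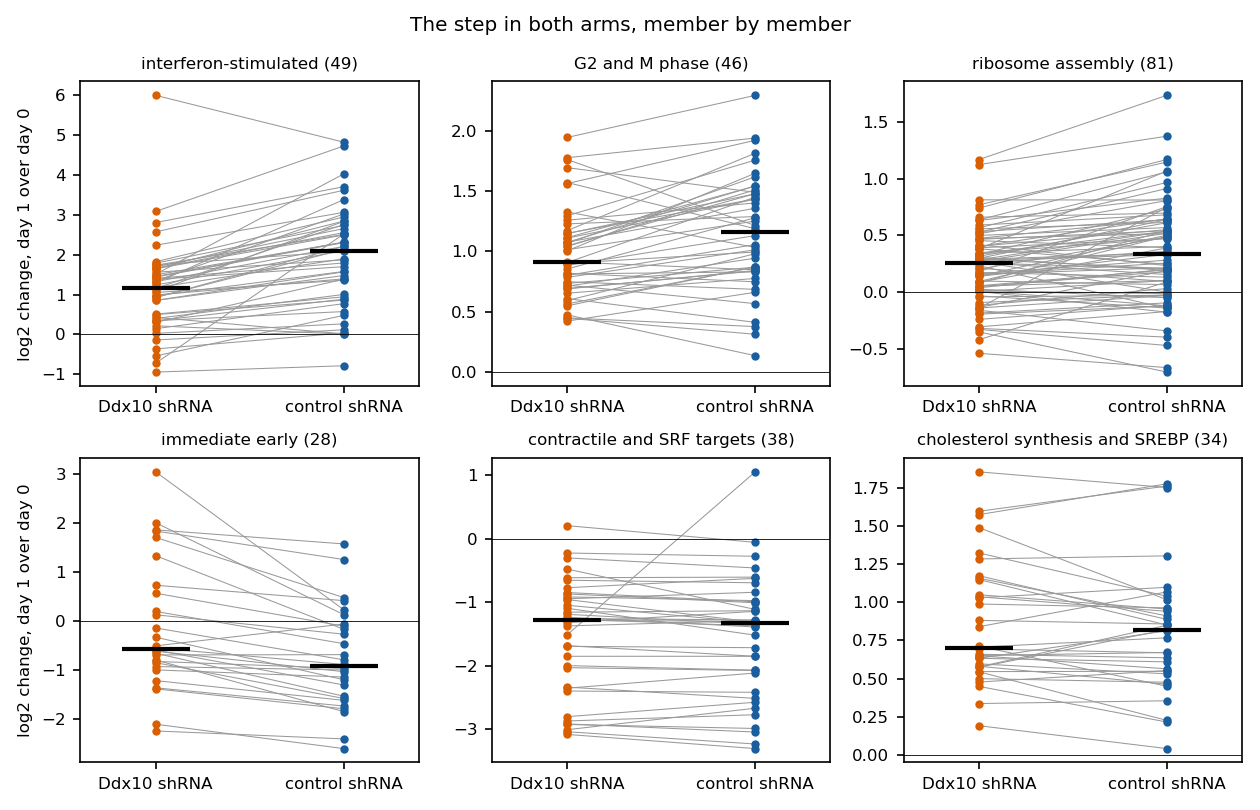
Log2 change at day 1 over day 0 of every measured member of 6 lists in the Ddx10 shRNA arm (left) and the control arm (right), joined by grey lines, with black bars at the medians. In the Ddx10 shRNA arm and then the control arm, the medians are 1.18 and 2.10 for interferon genes, -0.58 and -0.93 for immediate early genes and -1.28 and -1.34 for contractile genes.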

How the data were processed

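The authors deposited 1 table of normalized read counts, treated as signal values, for 15757 genes in 20 libraries. Per the submitters' processing notes, the tools were DESeq2 1.22.0, RSEM 1.2.22, STAR 2.5.2a and Trim Galore 0.4.4 and the build was mm10, with no role or order given; the normalization is not given in the sources used here. Messenger RNA libraries were read in paired ends, per the labels' protocols. Whole reads could not be recovered, since 41.3 to 63.4% of low values lay within 0.1 of a whole step; estimated depths were 12.0 to 23.7 M (1 M is 1000000) reads. Every gene reached at least 7.61 in some library, and the filter of 1 in 2 libraries removed 0 genes.

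Values were taken as log2(value + 1). All 20 libraries entered 1 fit of 10 group means (limma 3.58.1 in R 4.3.3, trend and robust both on, residual degrees of freedom 10), with p adjusted by Benjamini and Hochberg over 15757 genes at a threshold of 0.05. The script was tested on simulated data. The contrasts were day 1 over day 0 in each arm, the difference between them, and the arms against each other at day 0 and at day 1. Of the identifiers, 15665 (99.4%) matched GENCODE M21. Promoters came from RefSeq (GRCm38.p6).

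The members and the 33 lists were chosen with earlier results of these data known. By rule the text names Ddx10, the factors, the 12 largest rises and falls with a mean of at least 50 in the higher group and no overlap, from each list its 4 genes of smallest p, and the 8 largest differences in each direction; some that the rule gives are not described. Cdk1, Cdh1, Nanog, Krt7, Atf6, Samhd1, Srebf2, Hmgcs1, Jun and the genes of the promoter windows were chosen after their values were seen. Alternatives were other scalings, pseudocounts of 0.1 and 5, other filters, a replicate block, library weights, fewer libraries and leaving out single libraries.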

Additional observations from a re-analysis of the deposited data

Results flagged for a closer look

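Of the genes described above, 17 were marked because the step differed between the arms by the test of the difference itself (limma, Ddx10 shRNA arm minus control arm, log2). The negative ones were Tab3 (-2.38), Nebl (-1.77), Xaf1 (-1.61), Aldh3a1 (-1.46), Slc40a1 (-1.24), Mctp2 (-1.17), Hmox1 (-1.17), Ap1s3 (-1.0) and Ddx10 (-0.89). The positive ones were Egr3 (2.81), Egr1 (1.5), Eno2 (1.46), Nr4a1 (0.88), Btg2 (0.87), Plec (0.78), Errfi1 (0.73) and Notch3 (0.71). Each group holds 2 libraries, so single libraries far from the rest were not looked for.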

How the results depend on the processing

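The count of genes that changed in the Ddx10 shRNA arm stayed within 1.5 times of 7900 in each alternative run, with 6358 to 6776 when 1 of its libraries was left out (3264 to 3530 higher, 3035 to 3246 lower). With equal column sums, chosen after the data were seen, 2198 genes were lower in the Ddx10 shRNA arm and 2549 in the control arm. Of 151 named genes, 142 kept call and direction in each alternative run; Ddx10 turned to 0.0246 without replicate 1 of day 1 (range without single libraries -0.307 to 0.0246) and to 0.0954 with equal column sums, and Pou5f1 to 0.27 after quantile scaling and 0.16 with equal column sums, and the cause was not tested. The replicate numbers did not pair the samples (correlation of deviations -0.0146 between days); with a replicate block 7785 genes changed, and the difference between arms was called for 24 genes (6 higher, 18 lower), or 23 (6 and 17) with the block nested in the arm. Against 43 genes (10 higher, 33 lower), the difference was called for 26 (18 lower) after quantile scaling, 101 (42 and 59) with a pseudocount of 0.1, 28 (19 lower) with neither trend nor robust settings, 9 (3 and 6) with library weights and 1 (1 higher, 0 lower) with only the 8 libraries compared. Without single libraries it was called for 21 to 662 genes (9 to 298 higher, 12 to 364 lower). Where an arm kept 1 library at a day, it was assumed to vary like the other groups. Depth limits low genes: 0 counts in 2 libraries cannot be told from a low level.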
